A study of Brachypodium distachyon with 6 samples.

Results

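The 8 genes described here encode the peptides, receptors and helper proteins by which epidermal cells of the leaf restrict and orient the divisions that form stomata. They were chosen by locus out of 36647 genes in the table for their place in this pathway, with earlier results of these data known. The peptides are *BdEPF2-1* (BdiBd21-3.5G0153600) and *BdEPF2-2* (BdiBd21-3.5G0306100). The receptor kinases are *BdERECTA* (BdiBd21-3.1G0609800) and *BdERL1* (BdiBd21-3.1G0662500), and *BdTMM* (BdiBd21-3.2G0561000) encodes their receptor-like partner. The co-receptor is *BdSERK1/2-like2* (BdiBd21-3.3G0620800), the polarity receptor is *BdPAN2* (BdiBd21-3.1G0783500) and the protease is *BdSDD1* (BdiBd21-3.1G1009000). All 8 had enough counts to be tested, as had 23677 genes in all.

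As background, EPF peptides of *Arabidopsis thaliana* are small, cysteine-rich proteins that are secreted by young cells of the stomatal lineage. They bind the leucine-rich repeat receptor kinases ERECTA and ERL1, which work with the receptor-like protein TMM, a protein that lacks a kinase domain, and with SERK co-receptors. The signal is passed to the kinase YDA and to MAP kinases, which lower the activity of the transcription factor SPEECHLESS, so that fewer cells enter the lineage. In maize, the receptor-like protein PAN2 gathers on one side of the subsidiary mother cell before that cell divides asymmetrically.

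The tissue was the leaf developmental zone, the growing base of young leaves, from 3-week-old, soil-grown plants of the wild-type *Brachypodium distachyon* line Bd21-3. Leaf zones were either digested with Cellulase Onozuka RS and Macerozyme R10, which remove the cell walls and leave single cells called protoplasts, or left undigested. By the protocol of the study, digested material was also soaked, cut up, filtered through a mesh and washed. These steps are not described for the undigested leaf zones, so that the groups differ in more than digestion. Digested material came from 10 leaf zones and undigested material from 5, with 3 libraries per group, and poly-A RNA was sequenced in bulk. Pooled leaf zones hold all cell types of the growing leaf base, so that a smaller share of a cell type and less RNA of a gene per cell cannot be told apart. The comparison asks which genes are affected by protoplasting, and here what happened to the EPF, ERECTA and TMM genes. Title and library name place 3 libraries in each group, whereas a treatment entry names the other group for all 6. The groups are therefore called labelled protoplasted and labelled non-protoplasted, and each direction given would be exchanged if the treatment entry were right. The study kept only marker candidates that were not raised in its protoplasted bulk data, and chose genes to stain in tissue from those. It gives the cut as a fold change of 3 and, in describing the same data, as a log2 fold change of 3. Of the stained genes among the 8, *BdTMM*, *BdPAN2* and *BdSDD1* had log2 fold changes of 3.79, 3.40 and 5.00 here. *BdERL1*, stained too, had 1.70. These values follow title and library name. Whether each stained gene was picked through that screen, and how the screen bears on the label conflict, was not tested. The study calls its replicates biological.

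Counts on genes summed to between 23021800 and 24621927 in the libraries labelled protoplasted and to between 17482438 and 24045979 in those labelled non-protoplasted. Levels between groups are in CPM, where each count is divided by the library size and a TMM factor, a normalization that sets the typical gene equal between libraries. On this scale 3 counts, the smallest level taken as measurable, stood at 0.106 to 0.205 CPM. This floor and the counting intervals below cover counting error only. The groups were compared with the quasi-likelihood test of edgeR, and a gene was called at an adjusted p under 0.05.

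Among the libraries labelled protoplasted, 6 of the 8 genes were higher, 0 were lower and 2 passed in neither direction. These were *BdEPF2-2*, *BdERECTA*, *BdERL1*, *BdTMM*, *BdPAN2* and *BdSDD1*, with fold changes from 2.43 for *BdERECTA* to 32.0 for *BdSDD1*. *BdEPF2-1* and *BdSERK1/2-like2* were not called. Calls were common in this comparison, with 38.7% of all tested genes higher and 38.3% lower. The median log2 fold change of the 8 genes was 2.31, against 0.04 for all tested genes. In 7 of the 8 genes the libraries of the groups did not overlap in CPM, as in 80.5% of all tested genes, and *BdEPF2-1* was the exception. The count of 6 stood under every alternative setting but one, which required at least 10 counts in every library, removed *BdTMM* and *BdSDD1* and left 4 called higher.

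**Figure D1:**
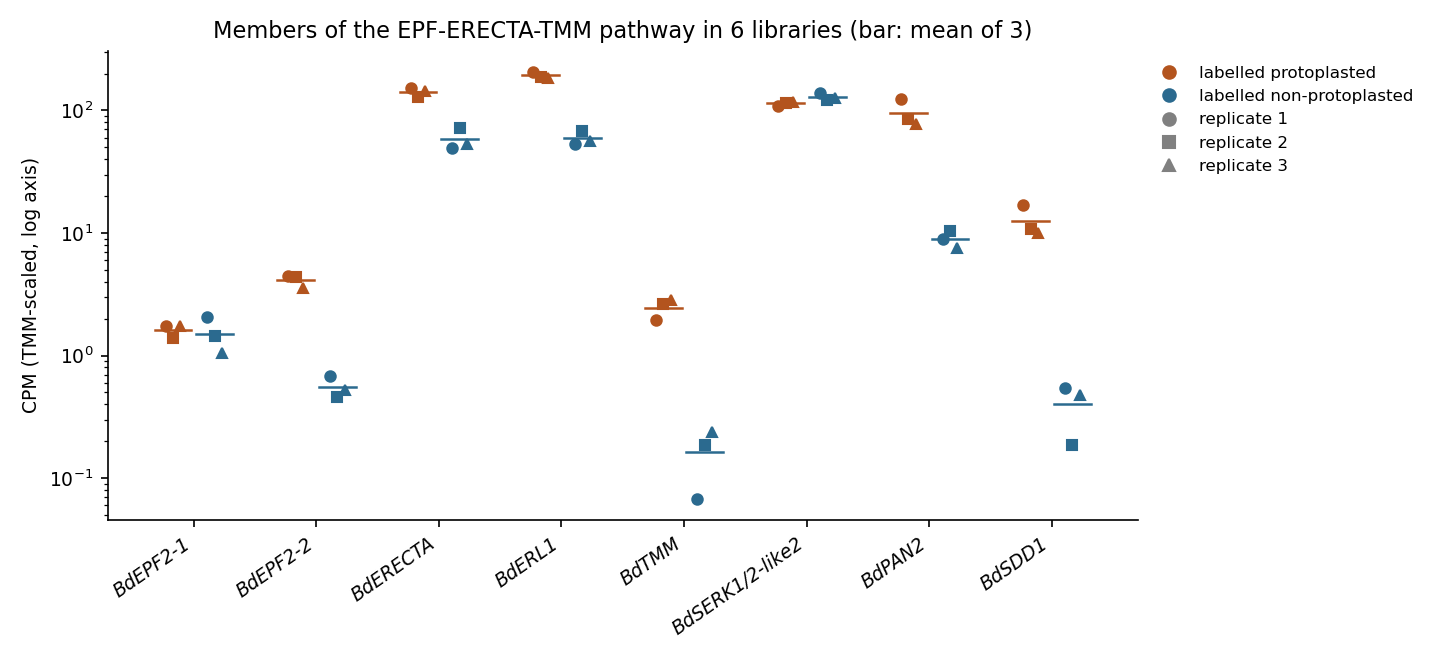
Level of each of the 8 genes in CPM (TMM-scaled, log axis) in the 3 libraries labelled protoplasted and the 3 labelled non-protoplasted, where each symbol is a library and each bar the mean of 3. The groups lie apart for *BdEPF2-2*, *BdERECTA*, *BdERL1*, *BdTMM*, *BdPAN2* and *BdSDD1*, all higher in the libraries labelled protoplasted, whereas *BdEPF2-1* overlaps and *BdSERK1/2-like2* is nearly level.

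The paralogous peptide genes differed from each other. EPF2 of *A. thaliana* is made by the earliest cells of the stomatal lineage and keeps their neighbours from entering it. *BdEPF2-1* had 46, 39 and 47 counts in replicates 1 to 3 labelled protoplasted, or 1.76, 1.38 and 1.74 CPM. The libraries labelled non-protoplasted held 30, 31 and 22 counts, or 2.05, 1.43 and 1.04 CPM. The 2.05 CPM of replicate 1 labelled non-protoplasted was the highest value of all 6 libraries and the 1.04 CPM of replicate 3 the lowest, so that one group spanned the other. Means were 1.63 ± 0.212 and 1.51 ± 0.507 CPM (SD, n = 3 each), and the log2 fold change was 0.13 (standard error, SE, 0.30, edgeR adjusted p = 0.692). Its 95% interval ran from -0.54 to 0.80, so that changes inside these bounds are not excluded. The coefficient of variation was 13.0% in the group labelled protoplasted, where counting alone would give 15.1%, and 33.6% in the other, where it would give 19.0%. Without replicate 3 labelled non-protoplasted the log2 fold change turned to -0.11.

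*BdEPF2-2*, the other peptide gene, had 116, 123 and 97 counts in the replicates labelled protoplasted, or 4.43, 4.36 and 3.59 CPM. The replicates labelled non-protoplasted held 10, 10 and 11 counts, or 0.682, 0.463 and 0.520 CPM. Every library labelled protoplasted exceeded every other library, the lowest by 5.27 times the highest of the other group. The means of 4.13 ± 0.465 and 0.555 ± 0.114 CPM (SD, n = 3 each) gave a log2 fold change of 2.91 (SE 0.26, edgeR adjusted p = 6.07e-06), or 7.51-fold. The log2 fold change of *BdEPF2-2* stood at the percentile 94.6 of all tested genes and that of *BdEPF2-1* at the percentile 52.5.

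The receptor kinases were both abundant and both higher in the libraries labelled protoplasted. In *A. thaliana*, ERECTA and ERL1 perceive several EPF peptides and act partly in place of each other. *BdERECTA* had 4006, 3665 and 3887 counts (153, 130 and 144 CPM) in the replicates labelled protoplasted and 730, 1564 and 1131 counts (49.8, 72.4 and 53.5 CPM) in the others. Its lowest level in the former, 130 CPM, was 1.79 times the highest level in the latter, 72.4 CPM. Group means of 142 ± 11.7 and 58.5 ± 12.1 CPM (SD, n = 3 each) gave a log2 fold change of 1.28 (SE 0.16, edgeR adjusted p = 5.76e-05).

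*BdERL1*, the paralog of *BdERECTA*, had 5383, 5311 and 4998 counts (206, 188 and 185 CPM) in the group labelled protoplasted. It had 783, 1471 and 1184 counts (53.4, 68.1 and 56.0 CPM) in the group labelled non-protoplasted. The replicates within each group lay close together, with coefficients of variation of 5.74% and 13.2%, and the groups did not overlap. *BdERL1* averaged 193 ± 11.1 and 59.1 ± 7.83 CPM (SD, n = 3 each), a 3.26-fold difference with a log2 fold change of 1.70 (SE 0.13, edgeR adjusted p = 2.52e-06). In both kinase genes replicate 2 had the highest level among the libraries labelled non-protoplasted.

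*BdTMM* was the least abundant of the receptor genes. TMM pairs with ERECTA-family kinases and sets which peptides they respond to. Replicates 1 to 3 labelled protoplasted held 51, 74 and 76 counts, or 1.95, 2.62 and 2.81 CPM. Those labelled non-protoplasted held 1, 4 and 5 counts, or 0.0682, 0.185 and 0.236 CPM, so that replicate 1 lay under the floor of 3 counts. No library labelled non-protoplasted came near the lowest of the other group, and the log2 fold change of *BdTMM* was 3.79 (SE 0.39, edgeR adjusted p = 1.44e-05). With so few reads the size is loosely set: 201 pooled counts stood against 10, a ratio of 14.2 after scaling with a 95% counting interval of 7.55 to 30.0. On the log2(TPM + 1) scale, which understates changes of low genes, the difference was 2.21.

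*BdSERK1/2-like2* was nearly level between the groups. SERK proteins are co-receptors that join many leucine-rich repeat receptors, those for brassinosteroids and for microbial patterns among them. Counts were 2870, 3257 and 3182 in the replicates labelled protoplasted and 2037, 2639 and 2652 in the others, or 110, 115 and 118 CPM against 139, 122 and 125 CPM. In CPM all libraries labelled non-protoplasted lay above all the others, by a margin smaller than the spread within that group. The log2 fold change of *BdSERK1/2-like2* was -0.17 (SE 0.11, 95% interval -0.43 to 0.08, edgeR adjusted p = 0.190). Its sign depended on the scaling. It was 0.21 with library size only, which moved the median of all genes by 0.38, and 0.11 on log2(TPM + 1), which moved it by 0.21.

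*BdPAN2* and *BdSDD1* showed large differences and the widest spread among the libraries labelled protoplasted. *BdPAN2* had 3240, 2382 and 2078 counts there (124, 84.4 and 76.9 CPM) and 130, 225 and 161 counts in the other group (8.86, 10.4 and 7.61 CPM). Replicate 1 labelled protoplasted stood above its fellow replicates, yet the lowest of them was still 7.39 times the highest library labelled non-protoplasted. Means were 95.0 ± 25.1 and 8.96 ± 1.40 CPM (SD, n = 3 each), and the log2 fold change of 3.40 (SE 0.21, edgeR adjusted p = 5.25e-07) is 10.6-fold. *BdPAN1*, which encodes the other receptor-like protein of subsidiary cell polarity in maize, had 28.5 ± 1.99 and 5.21 ± 1.22 CPM, with a log2 fold change of 2.44 (SE 0.18, edgeR adjusted p = 1.32e-06).

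SDD1 of *A. thaliana* is a secreted subtilisin-like protease whose loss raises stomatal density. *BdSDD1* had 440, 305 and 271 counts (16.8, 10.8 and 10.0 CPM) in the replicates labelled protoplasted and 8, 4 and 10 counts (0.546, 0.185 and 0.473 CPM) in those labelled non-protoplasted. Replicate 1 was again the highest of the libraries labelled protoplasted, and the low group sat close to the floor of 3 counts. Pooled counts of 1016 against 22 gave a scaled ratio of 32.6 with a 95% counting interval of 21.4 to 52.2. The log2 fold change was 5.00 (SE 0.36, edgeR adjusted p = 1.43e-06). It stood at the percentile 98.8 of all tested genes, that of *BdTMM* at 97.1 and that of *BdPAN2* at 96.2. On the log2(TPM + 1) scale the difference in *BdSDD1* was 3.50.

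Among the libraries labelled protoplasted, replicate 1 had the highest CPM for *BdEPF2-1*, *BdEPF2-2*, *BdERECTA*, *BdERL1*, *BdPAN2* and *BdSDD1*, and replicate 3 for *BdTMM* and *BdSERK1/2-like2*. For *BdEPF2-1* and *BdEPF2-2* the lead was within counting error, with 1.76 against 1.74 CPM and 4.43 against 4.36 CPM. How often replicate 1 led over all tested genes was not examined. The coefficient of variation among the libraries labelled protoplasted was 26.5% for *BdPAN2* and 29.5% for *BdSDD1*, where counting alone would give 1.97% and 5.43%. Without replicate 1 labelled protoplasted, the log2 fold change of *BdSDD1* was 4.75, and it ranged from 4.60 to 5.22 when each of the 6 libraries was left out in turn.

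**Figure D2:**
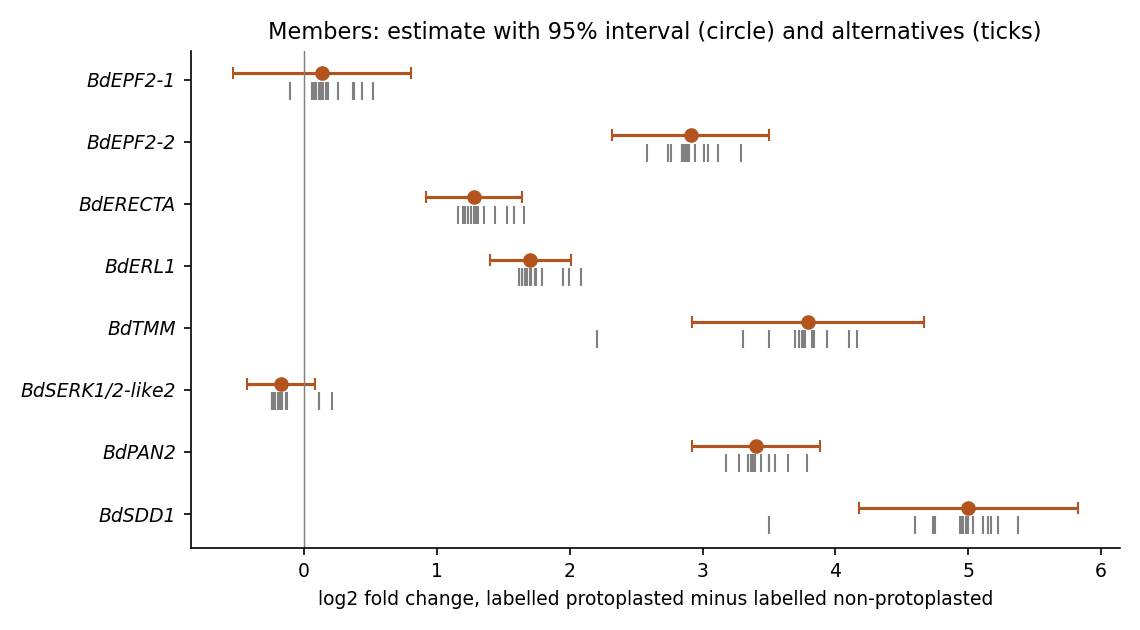
Log2 fold change of each of the 8 genes, labelled protoplasted minus labelled non-protoplasted, as the edgeR estimate with its 95% interval (circle and bar) and as the estimates under the alternative settings (ticks). Intervals of *BdEPF2-1* and *BdSERK1/2-like2* include 0 and some of their ticks change side, whereas the ticks of the other 6 genes stay above 0, with the lone low ticks of *BdTMM* and *BdSDD1* from the log2(TPM + 1) scale.

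Levels of different genes were compared per length, as the TPM of the deposited table. The lengths given there are 767 and 840 bases for *BdEPF2-1* and *BdEPF2-2*, 8292 for *BdERECTA*, 6825 for *BdERL1* and 1478 for *BdTMM*. They are 5688 for *BdSERK1/2-like2*, 5618 for *BdPAN2* and 2453 for *BdSDD1*, beside a median of 2237 over all genes with a length. Whether these lengths include introns is not given in the sources used here, and if they do, the TPM of the long kinase genes is too low beside that of the peptides. The ratios of the same genes compared between groups use the same lengths on both sides.

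In the libraries labelled protoplasted, *BdERL1* had the highest level with 83.0 ± 7.75 TPM (SD, n = 3), followed by *BdSERK1/2-like2* with 58.9 ± 0.518. *BdERECTA* with 50.4 ± 5.64 and *BdPAN2* with 49.9 ± 15.1 came next and overlapped. *BdSDD1* with 15.1 ± 5.04 and *BdEPF2-2* with 14.4 ± 1.96 TPM overlapped as well, as did *BdEPF2-1* with 6.23 ± 0.934 and *BdTMM* with 4.86 ± 0.751. The co-receptor and the receptor kinases thus stood in the upper part of the order, and the peptides and *BdTMM* in the lower part. Among all tested genes, *BdERL1* was at the percentile 92.1 of TPM and *BdTMM* at 36.4.

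Among the libraries labelled non-protoplasted, *BdSERK1/2-like2* led with 54.3 ± 1.1 TPM (SD, n = 3). *BdERL1* with 20.9 ± 3.53 and *BdERECTA* with 17.0 ± 4.12 followed and overlapped. *BdEPF2-1* with 4.68 ± 1.35 and *BdPAN2* with 3.84 ± 0.660 TPM also overlapped. Here *BdEPF2-1* exceeded *BdEPF2-2*, which had 1.58 ± 0.241 TPM, while in the other group their order was the opposite. *BdSDD1* with 0.389 ± 0.176 and *BdTMM* with 0.270 ± 0.149 TPM were last and overlapped. *BdTMM* was at the percentile 3.20 of all tested genes and *BdSDD1* at 4.70, whereas *BdSERK1/2-like2* was at 86.9.

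**Figure D3:**
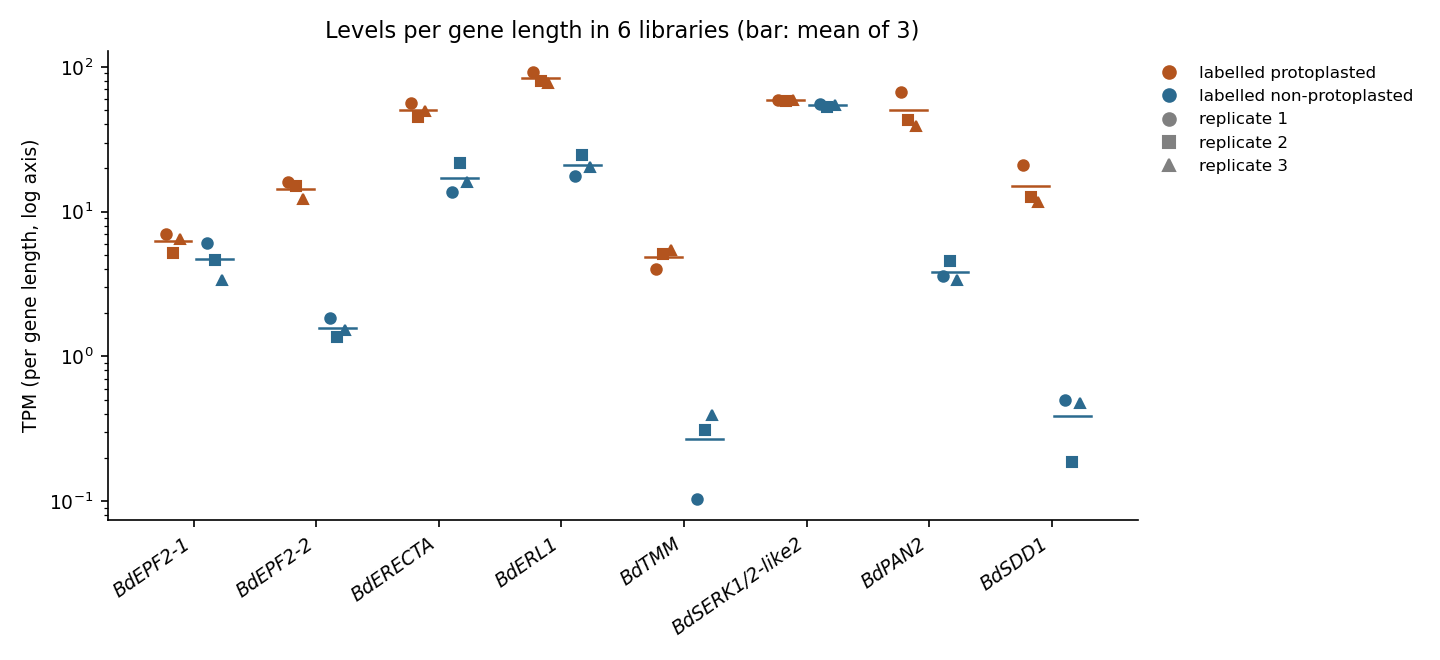
Level per gene length in TPM (log axis) of the 8 genes in the 6 libraries, with a symbol per library and a bar for the mean of 3. *BdERL1* has the highest mean in the group labelled protoplasted (83.0 TPM) and *BdSERK1/2-like2* in the group labelled non-protoplasted (54.3 TPM), while *BdEPF2-1* lies below *BdEPF2-2* in the former and above it in the latter.

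Summed ligand levels and summed receptor levels were both larger in the libraries labelled protoplasted, and their ratio overlapped between the groups. The summed TPM of both peptide genes was 20.7 ± 2.20 there and 6.25 ± 1.52 in the other group (SD, n = 3 each), and that of *BdERECTA*, *BdERL1* and *BdTMM* was 138 ± 12.2 and 38.2 ± 7.72. Receptor TPM was 6.60, 6.44 and 7.09 times the ligand TPM in the replicates labelled protoplasted and 3.99, 7.78 and 7.50 times in those labelled non-protoplasted. Only replicate 1 of the latter stood below the rest. As log2 ratios of TPM + 0.1, ligand over receptor averaged -2.74 ± 0.07 and -2.60 ± 0.54 (SD, n = 3 each), a difference of -0.14 (exact two-sided permutation p = 1, adjusted p = 1 over 5 ratios). Without replicate 1 labelled non-protoplasted this difference turned to 0.17. The smallest p that 3 libraries against 3 allow is 0.1, so that none of the 5 ratios could pass 0.05.

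Within the ligands, the makeup differed. *BdEPF2-2* gave 69.8 ± 4.45% of the ligand TPM in the libraries labelled protoplasted and 25.8 ± 4.80% in the others (SD, n = 3 each). The log2 ratio of *BdEPF2-1* over *BdEPF2-2* was -1.20 ± 0.30 against 1.48 ± 0.34, a difference of -2.68 without overlap (exact permutation p = 0.1, adjusted p = 0.13). In linear terms *BdEPF2-1* stood at 0.347 to 0.531 times *BdEPF2-2* in the former and at 2.19 to 3.40 times in the latter.

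Within the receptors, *BdTMM* moved more than the kinases. The kinases together had 36.9, 24.4 and 23.4 times the TPM of *BdTMM* in the replicates labelled protoplasted and 299.7, 149 and 91.6 times in those labelled non-protoplasted. The log2 ratio of *BdTMM* over *BdERECTA* plus *BdERL1* differed by 2.00 (exact permutation p = 0.1, adjusted p = 0.13). With 1 TPM added in place of 0.1 the difference fell to 0.40, and with CPM per kilobase and nothing added it was 2.54, so that its size rests on the few counts of *BdTMM*. Between the kinases, *BdERL1* gave 62.3 ± 1.4% of their TPM against 55.3 ± 1.7% (SD, n = 3 each). The log2 ratio of *BdERECTA* over *BdERL1* differed by -0.42 (exact permutation p = 0.1, adjusted p = 0.13), again without overlap.

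Set against the kinases, *BdSERK1/2-like2* was relatively lower in the libraries labelled protoplasted. Its log2 ratio over *BdERECTA* plus *BdERL1* was -1.17 ± 0.14 there and 0.54 ± 0.31 in the other group (SD, n = 3 each), a difference of -1.71 (exact permutation p = 0.1, adjusted p = 0.13). The kinases thus exceeded *BdSERK1/2-like2* in each library of the one group and fell below it in each library of the other.

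**Figure D4:**
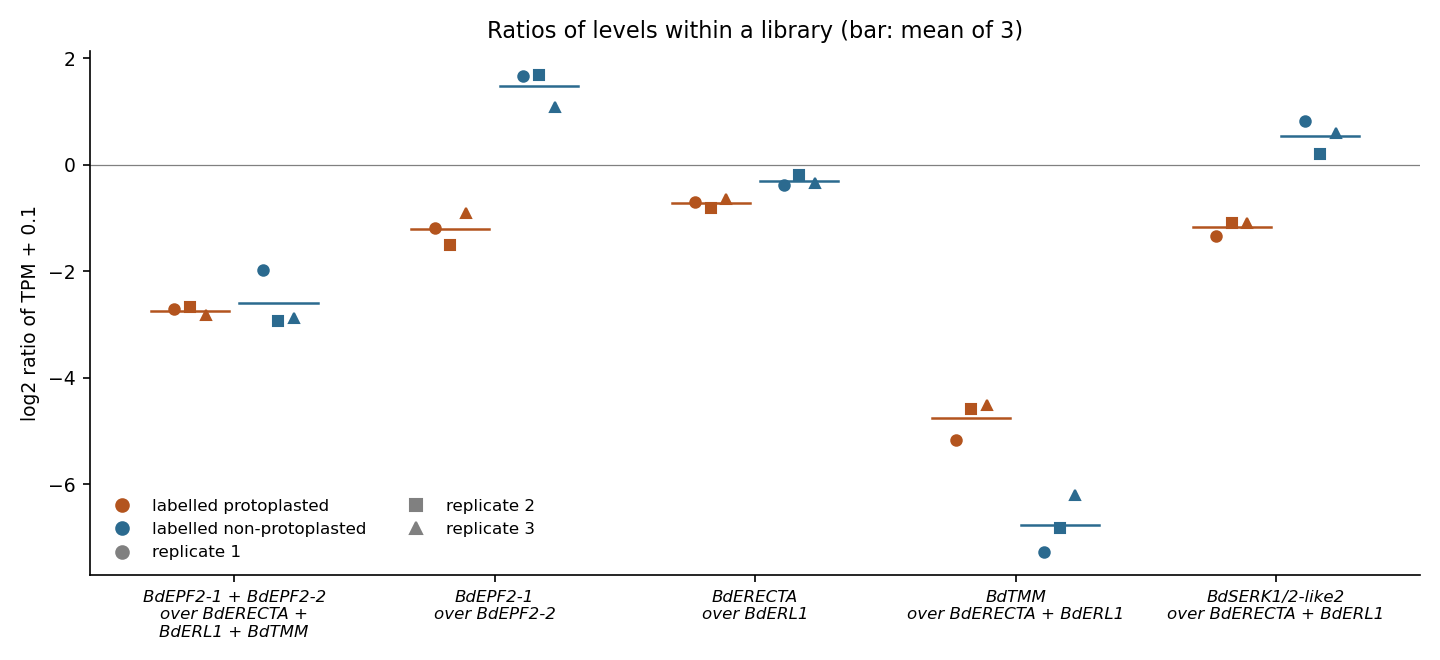
The 5 log2 ratios of TPM + 0.1 within each library, with a symbol per library and a bar for the mean of 3. Ligand over receptor overlaps between the groups, with replicate 1 labelled non-protoplasted above the rest, whereas the other 4 ratios do not overlap.

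The other genes of the pathway were taken from a list of 21 that includes *BdEPF2-1*, *BdEPF2-2*, *BdERECTA*, *BdERL1*, *BdTMM* and *BdSERK1/2-like2*. All 21 were tested. In the libraries labelled protoplasted 12 were higher, 6 lower and 3 neither, with a median log2 fold change of 0.91. These counts include genes already described. *BdEPF2-2*, *BdERECTA*, *BdERL1* and *BdTMM* are among the higher, and *BdEPF2-1* and *BdSERK1/2-like2* among those called in neither direction. Over all tested genes 38.7% were higher and 38.3% lower, with a median of 0.04, and roles with so few genes cannot be set apart from that. By position in the pathway, 2 of 3 ligands, 3 of 3 receptors and 5 of 6 transcription factors were higher, whereas 2 of 3 co-receptors and 4 of 6 genes of the kinase cascade were lower. When every library had to hold at least 10 counts, *BdTMM*, *BdSPCH1*, *BdSPCH2* and *BdMUTE* were removed and not tested. Of the genes left, 8 were higher and 7 lower, with *BdSCRM2* the added lower call.

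*BdSTOMAGEN-1* encodes a peptide related to the EPFs which in *A. thaliana* competes with them for the receptors and raises stomatal number. It had 391, 872 and 583 counts in the replicates labelled protoplasted and 128, 132 and 120 in the others, or 22.5 ± 8.01 and 6.84 ± 1.65 CPM (SD, n = 3 each). The log2 fold change was 1.73 (SE 0.27, edgeR adjusted p = 2.85e-04), between those of *BdEPF2-1* and *BdEPF2-2*. The gene is also used as a marker of mesophyll, the photosynthetic inner tissue.

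The co-receptor paralogs went in the opposite direction to the receptors. *BdSERK1/2-like1* (BdiBd21-3.5G0153700) had 487, 421 and 358 counts in the replicates labelled protoplasted and 2262, 2553 and 2718 in those labelled non-protoplasted. This is 15.6 ± 2.74 against 134 ± 18.6 CPM (SD, n = 3 each), with a log2 fold change of -3.1 (SE 0.17, edgeR adjusted p = 2.19e-07). *BdSERK1/2-like3* fell by 1.65 on the log2 scale (SE 0.12, edgeR adjusted p = 1.53e-06). The summed TPM of the 3 SERK genes was 84.7 ± 2.02 in the libraries labelled protoplasted and 149 ± 7.85 in the others, and *BdSERK1/2-like2* made up 69.5 ± 1.89% and 36.5 ± 1.19% of it. The ID of *BdSERK1/2-like1* is the next after that of *BdEPF2-1*, and whether the genes overlap or exchanged reads in counting was not tested.

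In the kinase cascade, the largest difference was that of *BdMPK3-like*, a MAP kinase, with 46, 38 and 41 counts in the replicates labelled protoplasted and 18067, 20135 and 21129 in those labelled non-protoplasted, which is -9.42 as a log2 fold change (SE 0.23, edgeR adjusted p = 4.18e-09). *BdMKK4/5-like2* and *BdMKK4/5-like1*, the kinases that act on such MAP kinases, had log2 fold changes of -3.74 and -1.86 and were called lower. *BdMPK6-like* and *BdYDA2* were called higher, with 0.94 and 0.81. *BdYDA1* was called lower with -0.59 (SE 0.15, edgeR adjusted p = 0.00577), a call lost with library size only and on both TPM scales.

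Transcription factors below the cascade were mostly higher in the libraries labelled protoplasted. *BdSPCH1*, which acts at entry into the stomatal lineage, had 53, 45 and 51 counts in the replicates labelled protoplasted and 0, 0 and 1 in the others. The scaled ratio of its 149 counts to 1 was 105, with a 95% counting interval from 18.6 to 4178. *BdSPCH2* had 28, 36 and 32 counts against 0, 3 and 2, a scaled ratio of 13.5 (95% counting interval 5.61 to 42.6). *BdMUTE*, which acts after *BdSPCH1*, had 96, 43 and 65 counts against 2, 5 and 3. The partner gene *BdICE1* had a log2 fold change of 2.23 and *BdFAMA*, which acts in late stages, one of 0.91, both called higher. *BdSCRM2* was not called, with -0.30 (SE 0.14, edgeR adjusted p = 0.0648), was called lower with RLE normalization, DESeq2 or at least 10 counts in every library, and stood at 0.08 with library size only. It was also called lower without replicate 1 labelled protoplasted.

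**Figure D5:**
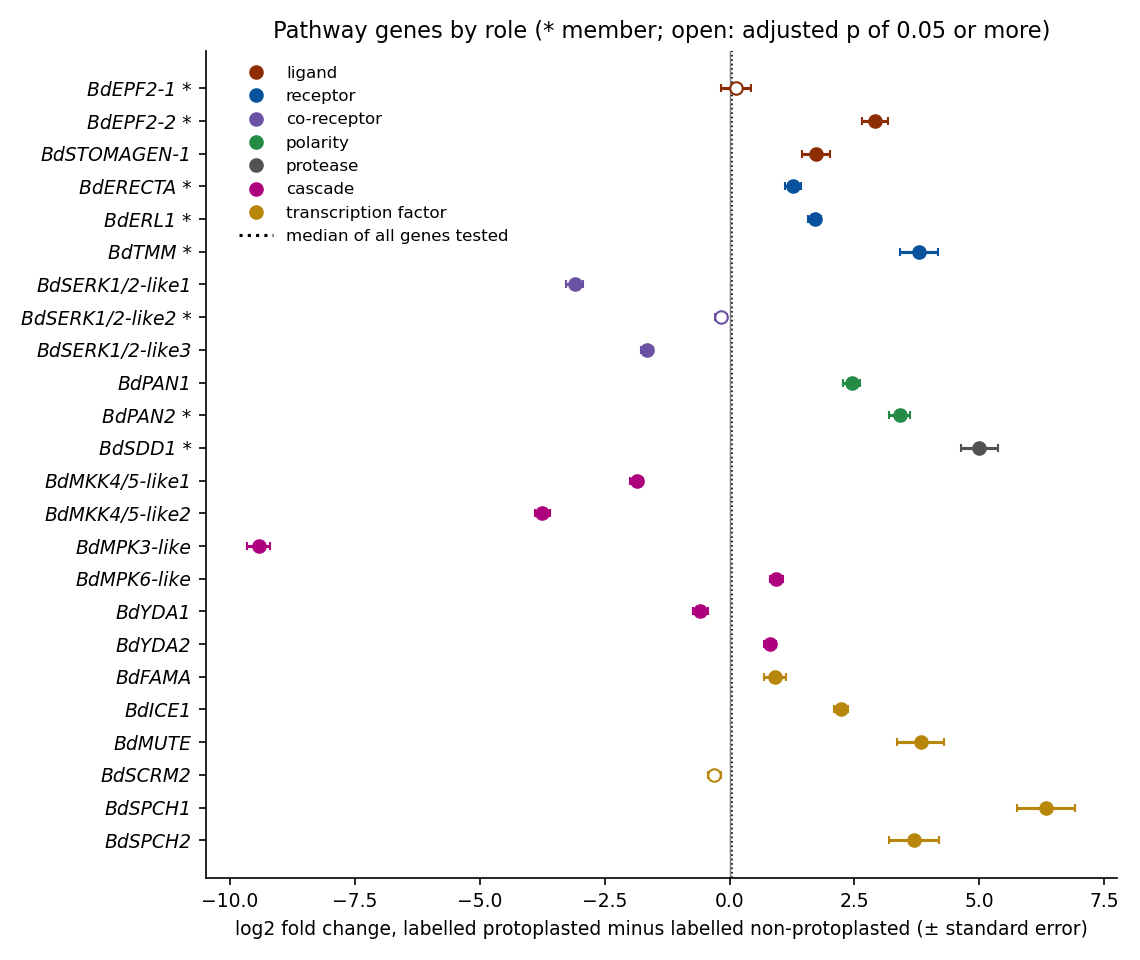
Log2 fold change (labelled protoplasted minus labelled non-protoplasted, ± standard error) of the 21 pathway genes and of *BdPAN1*, *BdPAN2* and *BdSDD1*, grouped by role and coloured by it. Ligand, receptor, polarity and protease genes lie at or above 0, while *BdSERK1/2-like1*, *BdSERK1/2-like3* and 4 cascade genes lie below it, as far as -9.42 for *BdMPK3-like*. The point of *BdSPCH1* rests on 1 count in the libraries labelled non-protoplasted and on the prior count.

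Markers of several leaf cell types were also higher in the libraries labelled protoplasted, and their part in the results was not tested. Over all tested genes 38.7% were higher and 38.3% lower, and marker lists this short cannot be set apart from that. All 6 stomatal lineage markers on the list were higher, *BdSPCH1*, *BdSPCH2*, *BdMUTE*, *BdFAMA*, *BdSCAP1-like* and *BdGELP1*, and their summed level ran from 36.0 to 52.1 CPM in the libraries labelled protoplasted and from 5.04 to 7.50 in the others. The first 4 are also on the pathway list. When every library had to hold at least 10 counts, *BdSPCH1*, *BdSPCH2*, *BdMUTE* and *BdSCAP1-like* were removed and not tested. The 2 markers left, *BdFAMA* and *BdGELP1*, were both called higher. *BdEPF2-1*, which the study also used to mark the guard cell lineage, is not on this list and was not called. *BdSPCH1* and *BdSPCH2* were at 0 in some of the libraries labelled non-protoplasted. Of 3 epidermal markers 2 were higher, with sums of 231 to 327 CPM and 52.4 to 66.8 CPM. Within these sums *BdPDF1* averaged 192 and 17.5 CPM. The 3 markers of hair and silica cells were higher too, with 397 to 651 CPM and 91.1 to 178 CPM. Within these *BdSLP1-like3* averaged 337 and 90.9 CPM. *BdWOX3B* of the last list was at 0 in some of the libraries labelled non-protoplasted.

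Markers of inner tissues did not all move one way, beside 38.7% of all tested genes higher and 38.3% lower. Both mesophyll markers were higher, with sums of 69.4 to 81.6 CPM in the libraries labelled protoplasted and 34.4 to 36.6 CPM in the others. Of 5 vascular markers 3 were higher and 1 lower, with sums of 222 to 237 CPM and 78.8 to 83.9 CPM. Most of both sums came from 1 gene, *BdXCP1-like*, with means of 202 and 68.3 CPM. The lower call, *BdVND-like2*, was lost with library size only, on both TPM scales and without replicate 3 labelled non-protoplasted. *BdSLAH2*, a marker of shoot apex and early vasculature in the study, was left off the lists and is named after its values were seen. It had 0.649, 0.283 and 0.185 CPM in the replicates labelled protoplasted and 40.9, 36.9 and 40.2 CPM in the others, and fell by 6.71 on the log2 scale (SE 0.29, edgeR adjusted p = 4.95e-08). Of 5 markers of shoot apex and primordia 3 could be tested and 2 were higher, with sums of 6.80 to 11.3 CPM and 1.61 to 2.17 CPM. This count was 1 with DESeq2, with at least 10 counts in every library, without replicate 3 labelled non-protoplasted and without replicate 2 labelled protoplasted. *BdKN1*, a marker of the shoot meristem, was at 0 in all 6 libraries. *BdWOX9C-like1* and *BdPIN1a*, also genes of the study, were left off the lists and are named after their values were seen. *BdWOX9C-like1* had a log2 fold change of -5.60 (SE 0.62, edgeR adjusted p = 2.40e-05). *BdPIN1a* went the other way, with 0.76 (SE 0.19, edgeR adjusted p = 0.00493). The sum of the stomatal lineage markers was highest in replicate 1 labelled protoplasted, as were *BdPAN2* and *BdSDD1*. *BdGELP1* alone gave 35.5 of the 52.1 CPM of that sum in replicate 1. The epidermal sum and the hair and silica cell sum were highest in the same library, at 327 and 651 CPM. The mesophyll and vascular sums were highest in replicate 2 and the shoot apex and primordia sum in replicate 3. Whether these patterns are linked was not tested.

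For each of the 8 genes, the most similar profiles were sought among 61 other named and tested genes, as the root mean square difference of log2 CPM over the 6 libraries after each gene's mean was taken away. *BdEPF2-2* was nearest to *BdPME53-like*, at 0.13, and then to *BdSLP1-like2*, at 0.26. *BdERL1* was nearest to *BdMYB60-like* and *BdXCP1-like*, at 0.14 and 0.15, and *BdERECTA* to *BdMYB60-like* and *BdMPK6-like*, at 0.16 and 0.20. *BdPAN2* was nearest to *BdSLP1-like7* and the epidermal *BdPDF1*, at 0.15 each. *BdSERK1/2-like2* lay nearest to *BdMYB88-like* and *BdSCRM2*, at 0.18 and 0.19.

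No close profile was found for the remaining genes. *BdTMM* had its nearest at 0.70, *BdPDF1* and *BdMUTE* alike, and *BdSDD1* at 0.50 for *BdSLP1-like6* and 0.56 for *BdGELP1*, a marker of the stomatal lineage. *BdEPF2-1* was nearest to *BdTSO1-like* and *BdPHB-like*, at 0.32 and 0.34. These genes with the largest distances also had the fewest counts in a library among the 8, apart from *BdEPF2-2*. With 6 libraries in 2 groups, likeness mostly reflects the size of the difference between the groups.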

How the data were processed

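Reads of 6 poly-A libraries were checked with FastQC and mapped with bowtie2, and the authors deposited raw read counts per gene, made with summarizeOverlaps and not normalized. Further columns by the authors hold a signal, reads per kilobase of gene length, and TPM values, this signal scaled to an equal sum in each library, along with group means of the TPM. Bowtie2 does not split reads over introns, so that reads across exon junctions may be missing, to an extent that was not tested. The counting mode and use of strand are not given in the sources used here, so that overlapping or similar genes may have lost or exchanged reads. All library columns belong to these samples (0 left unused). The treatment entry conflicts with title and library name in all 6 samples, and the latter were used.

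Counts were tested in R 4.3.3 with edgeR 4.0.16 (filterByExpr at a minimum count of 10, TMM, glmQLFit and glmQLFTest, prior count 0.125). Of 36647 genes 31335 had counts, and Benjamini-Hochberg adjustment ran over the 23677 tested, with a threshold of 0.05. Total counts ran from 17482438 to 24621927. Standard errors are the absolute log2 fold change over the square root of F, and 95% intervals use the t quantile of the fit. Counting intervals are exact binomial ones on pooled counts. Ratios of TPM + 0.1 were compared with exact permutation tests, adjusted over 5. The test was also run on simulated counts in which few genes changed, as many up as down. In these data most tested genes were called, so that this run does not show how the test behaves here.

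Named genes are the 8 members, the pathway list with the polarity and protease genes, and, for each member, the 2 most similar profiles among the named genes tested. *BdSLAH2*, *BdWOX9C-like1* and *BdPIN1a* were named after their values were seen. The pathway list and the marker lists for epidermis, stomatal lineage, hair and silica cells, mesophyll, vasculature, and shoot apex and primordia come from the gene table of the study. The 8 genes, the lists and the tests were chosen with earlier results of these data known. Alternatives were RLE normalization, library size only, other filters on low counts, DESeq2 1.42.0, limma-voom and limma-trend on TPM (limma 3.58.1), a prior count of 2, a replicate block, and each library left out in turn. Gene IDs matched 0 entries of the RefSeq table of the Bd21 assembly, so that no sequences or coordinates are given.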

Additional observations from a re-analysis of the deposited data

How the results depend on the processing

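The 6 genes called higher kept their direction and call in each alternative that tested them, with log2 fold changes of 2.58 to 3.29 for *BdEPF2-2*, 1.16 to 1.66 for *BdERECTA*, 1.62 to 2.08 for *BdERL1*, 2.21 to 4.16 for *BdTMM*, 3.18 to 3.78 for *BdPAN2* and 3.50 to 5.38 for *BdSDD1*. *BdSERK1/2-like2* reversed to 0.21 with library size only, 0.11 on log2(TPM + 1) and 0.12 on log2(TPM + 0.1), and *BdSCRM2* to 0.077 with library size only. The causes were not tested, but these scales moved the median of all genes by 0.38, 0.21 and 0.27, and 61.2%, 58.6% and 58.6% of calls were then higher, against 50.2% with TMM. Over the fits that left out a library, *BdEPF2-1* ran from -0.11 to 0.38, the ligand to receptor log2 ratio difference from -0.31 to 0.17, and the genes called from 8305 to 9702 higher and 8581 to 9690 lower.

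A replicate block gave 9140 genes higher and 9098 lower, 6 of the 8 genes were higher, and 12 pathway genes were higher and 6 lower, as without it. Libraries with the same number had correlations of their deviations of 0.07, 0.03 and 0.04. These are low, although each library correlated best with its own number. Whether equal numbers mark paired material was not tested. Depth limits *BdTMM*, *BdSDD1* and *BdEPF2-2* in the libraries labelled non-protoplasted, where each had at most 11 counts.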
